A study of Cloeon viridulum with 15 samples.

Results

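Protein-cutting enzymes were followed through the life cycle of the mayfly Cloeon viridulum, an insect whose larva lives and feeds in water and whose winged stages, the subimago and the imago, do not feed. The enzymes are 186 of 91881 unigenes, sequences assembled from the reads without a genome. They were chosen by the protein name of their best hit, which had to contain trypsin, carboxypeptidase, aminopeptidase or cathepsin, with inhibitors and methionine aminopeptidases left out and only animal hits kept. The names of 269 unigenes matched, and 83 of these had no animal hit. Whole bodies were sequenced, 3 libraries for each of 4 stages and 3 of a mixture. Each young larva library pooled 10 animals, and each library of a later stage pooled 6, with both sexes in equal number. The mixture pooled 11 animals per library, of which 5 were young larvae. Young larvae came from the wild, and the later stages were raised indoors from such larvae at 22 ± 1 °C, on water and plants of the same site.

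Insects digest protein in the midgut with secreted serine proteases, mainly trypsins, which cut after lysine and arginine, and chymotrypsins, which cut after large hydrophobic residues. Carboxypeptidases and aminopeptidases then trim the peptides from their ends, and aminopeptidase N does so at the surface of the gut cells. Names of the same families also belong to proteases with other work, such as lysosomal cathepsins and the carboxypeptidases that process peptide hormones.

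By name, 87 of the 186 members were trypsin-like serine proteases (chymotrypsins included), 16 were carboxypeptidases A or B, and 19 were aminopeptidases N. A further 27 were cathepsins, 23 were other carboxypeptidases and 14 were other aminopeptidases. The label of digestive proteases therefore fits only some of them, since lysosomal, cytosolic and hormone-processing enzymes are included. One trypsin-like member is named antitrypsin, by its name an inhibitor of serine proteases and not a protease. The best hits came from arthropods for 177 members and from other animals for 9. The members had 66 distinct names and 121 distinct best hits, and 92 of them shared 27 best hits, the most common of which, named chymotrypsin BI, was that of 14 members. Pieces of 1 gene and near copies can therefore stand among them, and values of single unigenes that share a hit are uncertain.

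Libraries held 36550269 to 74837923 reads. Mature larva replicate 1 was the deepest and stood apart from its group, with reads in 75863 unigenes against 46421 and 47983 in mature larva replicates 2 and 3. Protist and fungal hits accounted for 8.00%, 1.74% and 5.05% of young larva reads, 2.45%, 0.193% and 0.275% of the mature larvae, 0.312% to 0.393% of the subimagoes, 0.369% to 0.488% of the imagoes and 0.247% to 0.315% of the mixtures. Unigenes named for 6 kinds of muscle protein, a marker list of 45, took 2.54% to 3.50% of the young larva reads, 0.873%, 0.223% and 0.255% of the mature larva reads, and 0.121% to 0.204% of those of the winged stages. Egg protein names, a list of 10, took up to 0.000568% in young larvae and 0.0578% to 0.101% in mature larvae. In the subimagoes they took up to 0.167%, and in the imagoes 0.271% to 0.372%. Plant and algal protein names, a list of 17, took at most 0.000353% in any library. Best hits were classed as arthropod, other animal, or protist or fungal, without a plant class. This small share therefore cannot show how much plant material was present. Mature larva replicate 1 thus lay above the other mature larvae in protist and muscle reads. Its part in the member counts of each comparison was measured by leaving it out. Changes of single unigenes are with all libraries unless stated otherwise. Of the calls of named members, 69 held without it, 15 were lost and 2 changed sign.

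In young larvae the members together took 1.28%, 0.479% and 1.33% of all reads, and in mature larvae 0.540%, 0.162% and 0.197%. Their share was 0.300%, 0.280% and 0.202% in the subimagoes, 0.304%, 0.246% and 0.307% in the imagoes, and 0.212%, 0.200% and 0.213% in the mixtures. Young larva replicate 2 lay far below the other 2 young larva libraries, and mature larva replicate 1 far above the other mature larvae, within the range of the young larvae. In these whole bodies, fewer cells of a type and less RNA per cell cannot be told apart. By their means, 134 of the 186 members were highest in the young larva, 12 in the mature larva, 18 in the subimago and 22 in the imago. The same count over all unigenes was not made, so these numbers are not shown to be particular to proteases. Young larva libraries had reads in 65920 to 72586 unigenes of any kind, and winged libraries in 44635 to 49080. Levels here and below are RPKM, reads per length of unigene and depth of library, after TMM scaling between libraries.

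**Figure D1:**
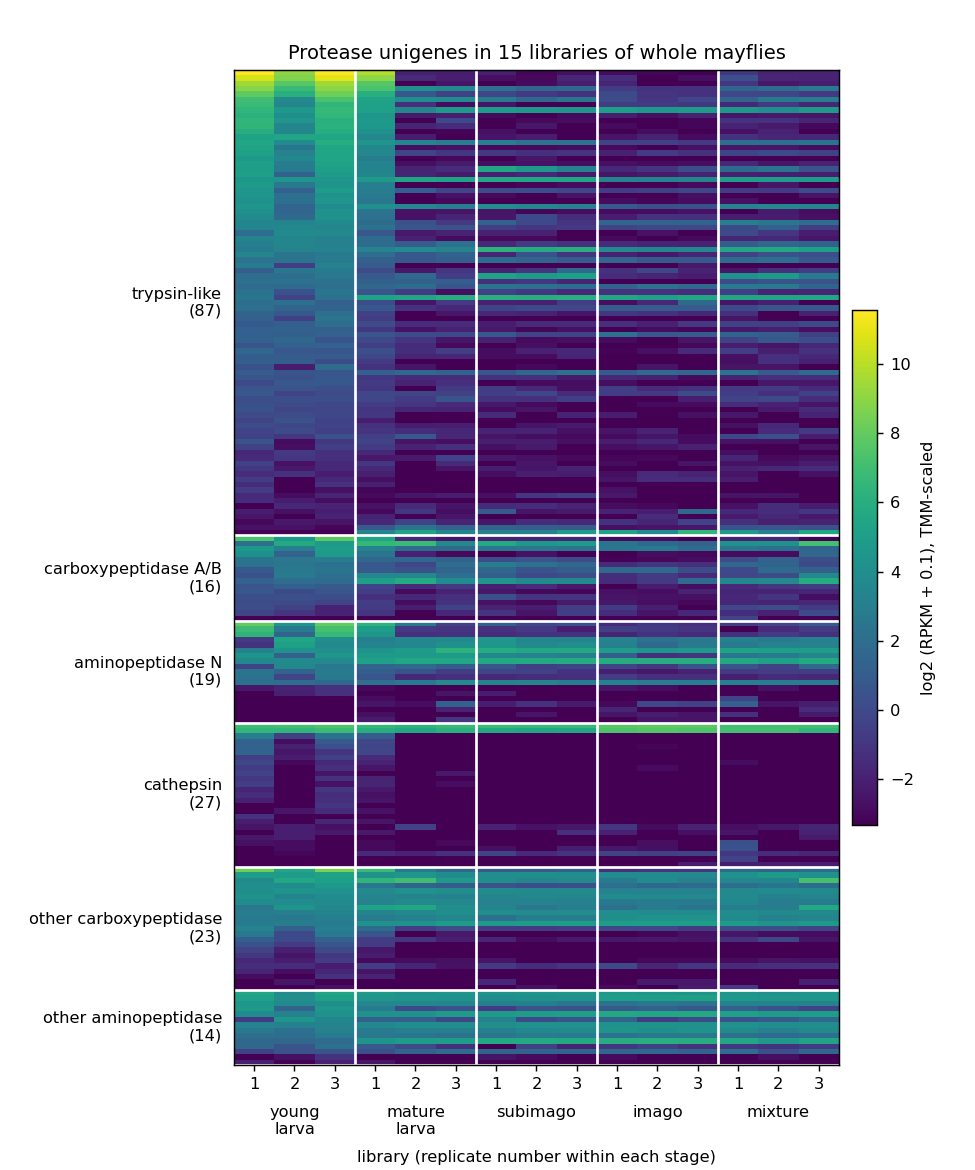
Levels of the 186 protease unigenes (rows, grouped by class and sorted by young larva mean) in the 15 libraries (columns), as log2 of TMM-scaled RPKM plus 0.1. The brightest trypsin-like rows are bright in the 3 young larva libraries and in mature larva replicate 1, and dark in mature larva replicates 2 and 3 and in the winged stages, while 2 cathepsin rows are bright in all 15 libraries.

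The classes differed in how their shares ran over the stages. Trypsin-like members took 0.907%, 0.253% and 0.913% of the reads in the young larvae, 0.275%, 0.0221% and 0.0296% in the mature larvae, 0.0825%, 0.0667% and 0.0486% in the subimagoes and 0.0318%, 0.0208% and 0.0348% in the imagoes. Carboxypeptidases A and B averaged 0.0418% ± 0.0116 in young larvae, 0.0262% ± 0.0179 in mature larvae, 0.0133% ± 0.00655 in subimagoes and 0.00291% ± 0.000522 in imagoes (SD, n = 3 each). Cathepsins averaged 0.0364% ± 0.00432 in young larvae and 0.0163% ± 0.00567 in mature larvae. They ran the other way in the winged stages, with 0.0545% ± 0.00410 in imagoes and 0.0196% ± 0.00311 in subimagoes. Other aminopeptidases averaged 0.0529% ± 0.00784, 0.0417% ± 0.00961, 0.0618% ± 0.0110 and 0.0900% ± 0.0111 from young larva to imago (SD, n = 3 each). These class shares were not tested.

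**Figure D2:**
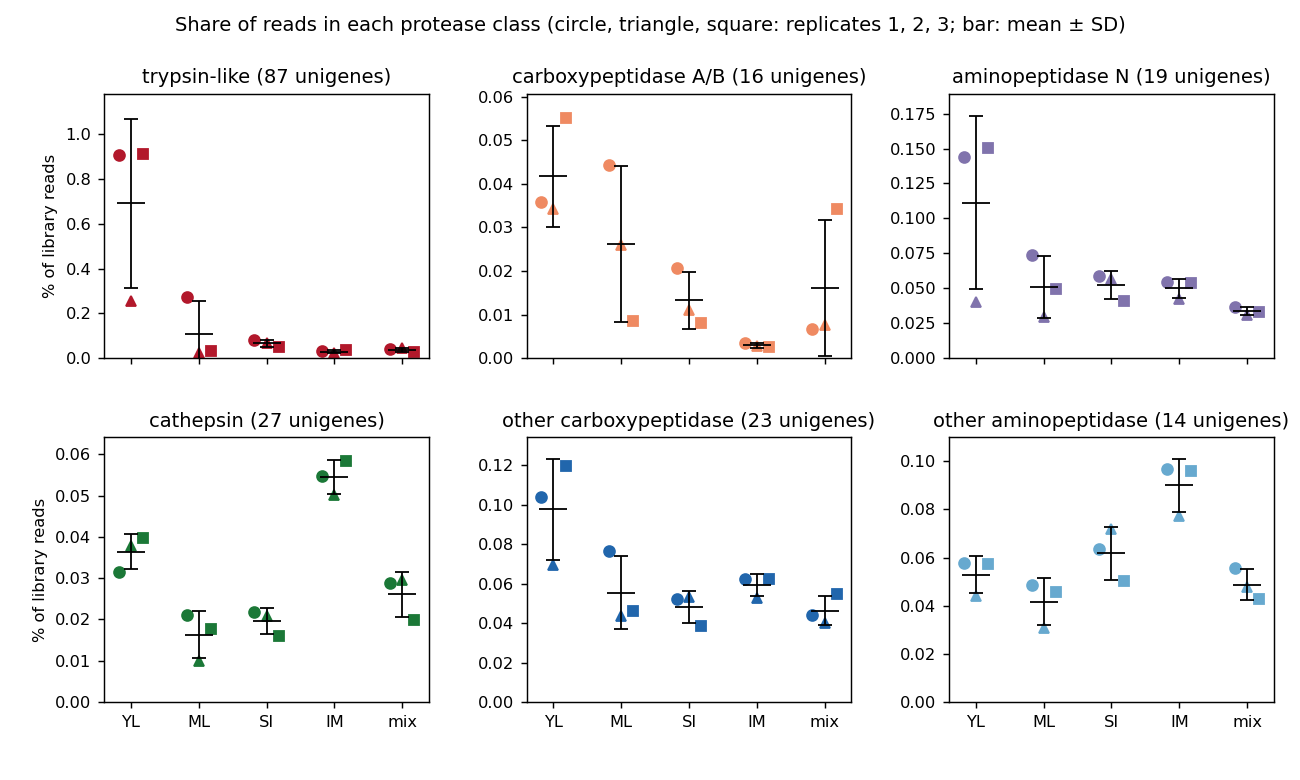
Share of each library's reads (y axis, %) taken by the 6 protease classes in young larvae (YL), mature larvae (ML), subimagoes (SI), imagoes (IM) and mixtures (mix), with the mean and SD over 3 libraries. The trypsin-like share reached 0.913% in the young larvae and stayed at or below 0.0825% in the subimagoes and imagoes, and the cathepsin share was highest in the imagoes.

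To compare the larval stages with the non-feeding winged ones, the mean log2 level of subimago and imago was set against that of young and mature larva. Whether the mature larvae still fed when they were taken was not tested. A filter on low counts left 34131 unigenes, 139 of them members, and the test was edgeR's quasi-likelihood test with Benjamini-Hochberg adjustment over all 34131. Of the 139 members, 92 fell and 14 rose at an adjusted p under 0.05, while 43% of all tested unigenes were called lower and 28.1% higher. The members' median log2 change was -2.34, against -0.49 over all unigenes. By class, 56 of 76 trypsin-like members fell and 3 rose, 11 of 15 carboxypeptidases A or B fell and 0 rose (0 also at an unadjusted p under 0.05 and with DESeq2), and 7 of 13 aminopeptidases N fell and 2 rose. Counts were 12 lower and 3 higher of 17 for other carboxypeptidases, 3 lower and 4 higher of 12 for other aminopeptidases, and 3 lower and 2 higher of 6 for cathepsins. Without mature larva replicate 1, 75 of 144 members fell and 14 rose, against 27.8% and 24% of all unigenes, and 74 of the 92 remained among the lower ones. In that fit 0 of 8 cathepsins fell, also at an unadjusted p under 0.05.

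Within the aquatic larval period, mature larvae were compared with young larvae. Young larvae came from the wild and mature larvae were raised indoors, so stage and origin cannot be told apart in this comparison. Origin differed in part between winged and larval stages too. In edgeR's test 35 of the 139 members fell and 16 rose, where 9.72% of all unigenes were called lower and 25.4% higher. The median log2 change was -1.91, against -0.05 over all unigenes. Among the 35 were 19 trypsin-like members, and 5 of each of the carboxypeptidases A or B and the other carboxypeptidases. Without mature larva replicate 1, 82 of 144 members fell and 17 rose, against a background of 25.6% and 24.8%, and all 35 remained. That fit called 52 of 79 trypsin-like members lower. With each library left out in turn, 12 to 82 members fell, with 18 and 14 without young larva replicates 1 and 3 and 12 and 14 without mature larva replicates 2 and 3. Of 35 tested muscle unigenes 21 fell and 1 rose in the same comparison, and their part in the protease counts was not tested.

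In the comparison of subimago with mature larva, the moult to the first winged stage, 34 of the 139 members fell and 3 rose, against 14.2% and 8.98% of all unigenes. The median log2 change was -1.52, or -1.41 with 11 members that had no read in one stage set at the bound that 3 reads allow, against -0.28 over all unigenes. This count changed with single libraries. Without mature larva replicate 1, 4 of 144 members fell and 5 rose, against 5.28% and 2.68% of all unigenes, the median was -0.23, and 30 of the 34 lower calls were lost. The 4 that remained were all trypsin-like. Without subimago replicates 1, 2 and 3 in turn, 7, 3 and 2 members fell, and with any of the other libraries left out 20 to 46 fell. With the replicate number as a block 11 fell, and without a filter on low counts 6.

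Between the winged stages, imago against subimago, 20 members fell and 6 rose, while 9.26% of all unigenes were called lower and 6.73% higher, and the median log2 change was -0.23 (all unigenes -0.02). The 20 were 13 trypsin-like members, 4 carboxypeptidases A or B, 2 aminopeptidases N and 1 other carboxypeptidase. The 6 were 2 cathepsins, 2 other carboxypeptidases and 2 other aminopeptidases, and 0 trypsin-like members rose (1 at an unadjusted p under 0.05, 2 with DESeq2). Without mature larva replicate 1, 22 members fell and 8 rose (8.47% and 6.52% of all unigenes), and all 26 calls remained. The lower count was 11 without subimago replicate 1, and 11, 10 and 13 without imago replicates 1, 2 and 3. With members that had no read in one group set at their bound, the medians of this and of the other 2 comparisons not so described above were the same. The comparisons share libraries, so their counts are not independent.

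**Figure D3:**
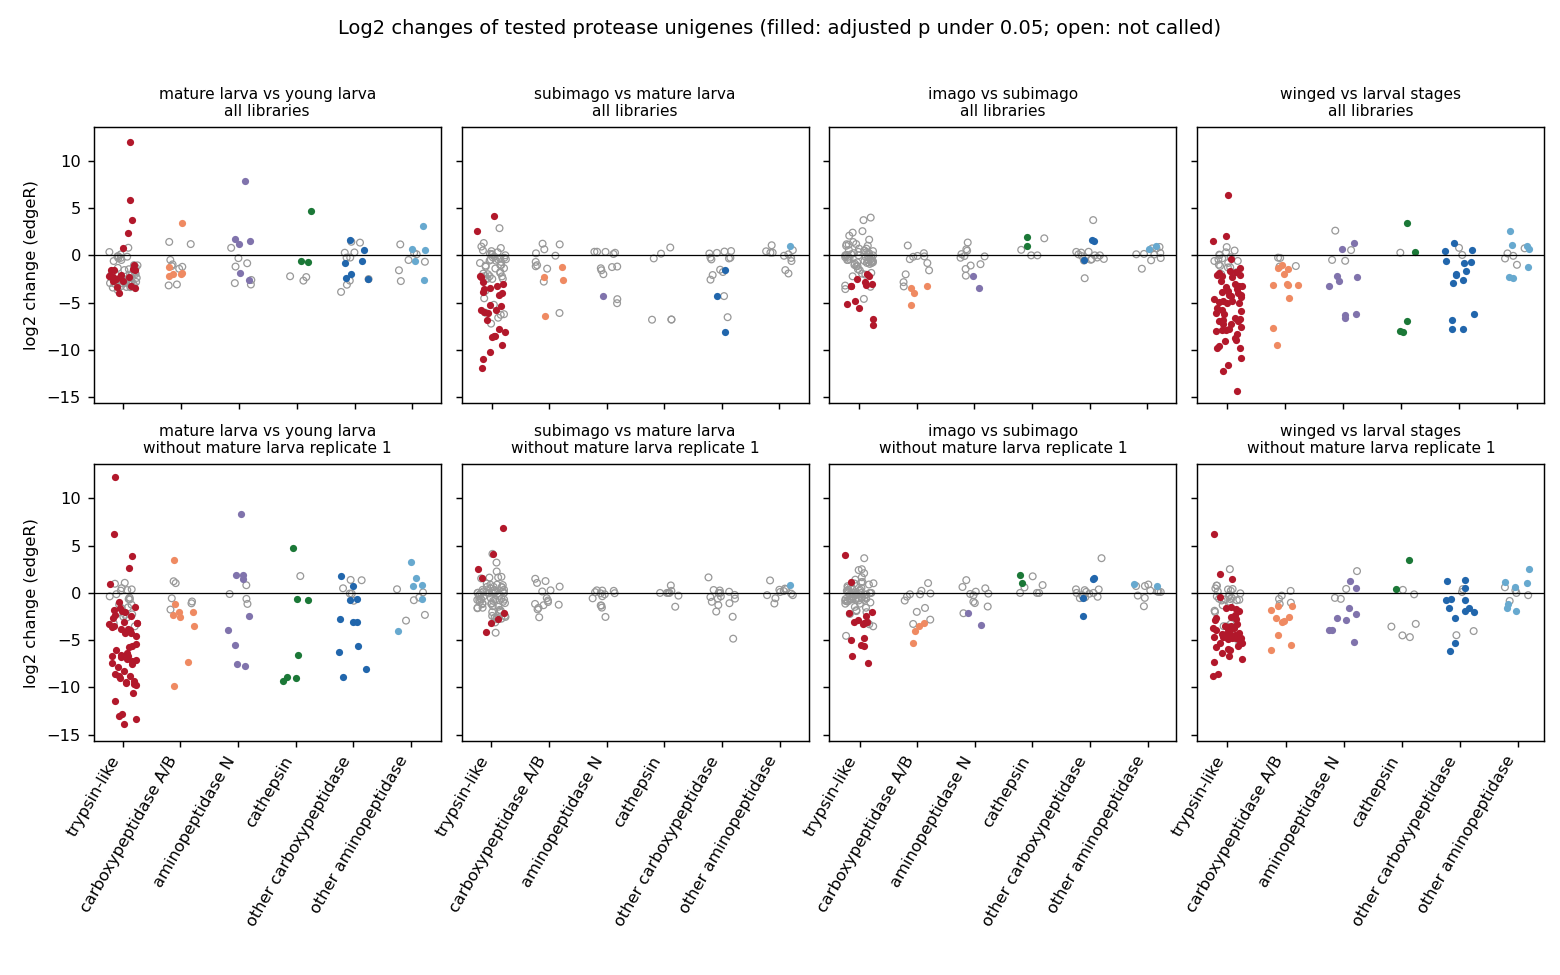
Log2 changes (y axis, edgeR) of the tested protease unigenes by class in the 4 comparisons, with all libraries (upper row) and without mature larva replicate 1 (lower row). Filled points have an adjusted p under 0.05. For subimago against mature larva, 34 lower calls in the upper row stand against 4 in the lower row.

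Among the trypsin-like members, the most abundant were chymotrypsins of the young larva. Chymotrypsin BI (13_Contig_12396) had 3030, 499 and 2885 RPKM in the young larvae, 911, 0.147 and 0.125 in the mature larvae, 0.149, 0.0179 and 0.0504 in the subimagoes and 0.0338, 0.0187 and 0 in the imagoes. All 3 young larva libraries and mature larva replicate 1 were high, and the other 8 stage libraries were at or below 0.149 RPKM. In winged against larval stages its log2 change was -14.34 ± 2.38 (SE, adjusted p = 0.000258, edgeR). Mature against young larva gave -2.82 ± 2.00 (adjusted p = 0.278, not called) with all libraries, and -13.89 ± 1.11 (adjusted p = 3.89e-07) without mature larva replicate 1.

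Chymotrypsin 5 (13_Contig_30829) was high in the same 4 libraries, with 1652, 427 and 1981 RPKM in the young larvae, 521, 0.236 and 0.139 in the mature larvae, 0.0497, 0.0240 and 0.202 in the subimagoes and 0.293, 0 and 0.0458 in the imagoes. A second unigene of that name (13_Contig_39907) had 700.3, 205 and 703 RPKM in the young larvae, 200.5, 0 and 0.0765 in the mature larvae and at most 0.186 RPKM in the winged stages. Both fell in winged against larval stages, with log2 changes of -12.22 ± 2.15 and -11.60 ± 2.07 (adjusted p = 0.000389 and 0.000426, edgeR). For 13_Contig_39907 the log2 change of subimago against mature larva was -10.25 ± 2.86 with all libraries and 0.16 without mature larva replicate 1 (adjusted p = 1).

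Trypsin-1 (13_Contig_51991) had 73.2, 16.8 and 92.3 RPKM in the young larvae, 22.4, 0.102 and 0.121 in the mature larvae, 0.0323, 0 and 0.0291 in the subimagoes and 0.117, 0.0541 and 0.159 in the imagoes. It fell in winged against larval stages (-8.79 ± 1.45, adjusted p = 0.000247, edgeR). The chymotrypsin-like proteinase 5B 13_Contig_48574 differed in that young larva replicate 2 was not low, with 10.1, 11.4 and 8.93 RPKM in the young larvae and 3.72, 0.154 and 0.0365 in the mature larvae. Its winged libraries were at or below 0.0325 RPKM, and it fell by 7.28 (SE 1.11, adjusted p = 0.000133, edgeR).

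The pattern of these genes was counted over the 60 members with a young larva mean of at least 10 RPKM. In 19 of them every one of 8 libraries, mature larva replicates 2 and 3, the subimagoes and the imagoes, was under 1% of the young larva mean. They were 16 trypsin-like members, 1 carboxypeptidase A and 2 aminopeptidases N, with young larva means of 12.8 to 2138 RPKM and no more than 1.60 RPKM in any of the 8 libraries. In mature larva replicate 1 the same 19 stood at 27.8% to 50.7% of the young larva mean (median 38.5%), and in young larva replicate 2 at 4.60% to 102% (median 27.6%). In the 3 mixture libraries they stood at or below 0.866%, although 5 of the 11 animals of a mixture were young larvae. The 19 were chosen on these values, so the percentages describe them and were not tested. The same count over all unigenes was not made, so the pattern is not shown to be particular to proteases. Outside the members, peritrophic matrix protein 14 (13_Contig_36423) averaged 510 ± 306 RPKM in young larvae, 63.9 ± 111 in mature larvae and at most 0.135 in either winged stage.

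**Figure D4:**
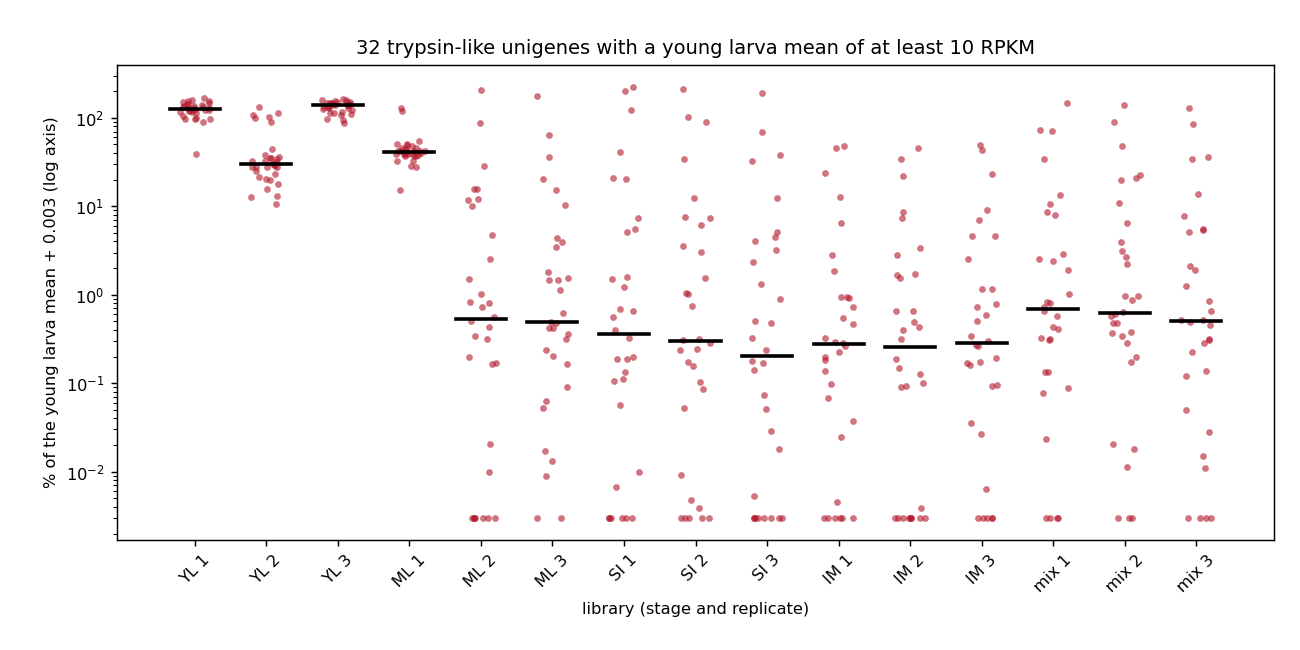
Level in each library as a percentage of the young larva mean (log axis, 0.003 added) for the 32 trypsin-like unigenes with a young larva mean of at least 10 RPKM (points), with the median (bar). The median was 41.3% in mature larva replicate 1 and 0.524% and 0.487% in mature larva replicates 2 and 3.

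Chymotrypsin 13_Contig_23035 fell at each step. It had 486, 111 and 508 RPKM in the young larvae, 157, 17.5 and 12.9 in the mature larvae, 4.52, 2.74 and 3.26 in the subimagoes and 0.497, 0.356 and 0.342 in the imagoes. The libraries of successive stages did not overlap in any of the 3 steps except that mature larva replicate 1 lay within the young larva range. The log2 changes were -2.56 ± 0.87 for mature against young larva, -4.15 ± 0.94 for subimago against mature larva and -3.13 ± 0.93 for imago against subimago (adjusted p = 0.0386, 0.0151 and 0.0403, edgeR).

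Chymotrypsin-like protein 2 (13_Contig_12906) did not have a high mature larva replicate 1. It had 8.51, 11.0 and 8.94 RPKM in the young larvae, 3.67, 1.82 and 4.76 in the mature larvae, 0.215, 0.484 and 0.340 in the subimagoes and 0.250, 0.193 and 0.154 in the imagoes. It fell in mature against young larva (-1.47 ± 0.37, adjusted p = 0.00748) and in subimago against mature larva (-3.29 ± 0.40, adjusted p = 0.000848, edgeR), and between imago and subimago the change was -0.80 ± 0.38 (adjusted p = 0.201). Of the 34 members called lower in the subimago it was 1 of the 4 that stayed called without mature larva replicate 1, at -3.23 ± 0.43 (adjusted p = 0.00123). Chymotrypsin 5 13_Contig_22034, chosen after its values were seen, was another, with 4.43, 4.60 and 4.72 RPKM in young larvae, 2.32, 2.35 and 2.09 in mature larvae, 0.307, 0.432 and 0.192 in subimagoes and no read in the imagoes.

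Some smaller larval members differed from the large chymotrypsins in the young larva libraries, though mature larva replicate 1 was still the highest of the mature larvae. Chymotrypsin BI 13_Contig_45795 had 2.39, 2.33 and 2.29 RPKM in young larvae and 0.440, 0.0656 and 0.163 in mature larvae, so that the young larva libraries agreed closely and mature larva replicate 1 was far below them. It fell in mature against young larva (-3.30 ± 0.69, adjusted p = 0.00221, edgeR). In trypsin 13_Contig_22495 young larva replicate 1 was the low one, with 3.97, 13.6 and 12.9 RPKM in young larvae and 1.57, 0.103 and 0.183 in mature larvae (-3.96 ± 1.12, adjusted p = 0.0155). Trypsin-7 13_Contig_50400 and trypsin-like protein-1 13_Contig_32401 fell too (-3.28 ± 1.11 and -3.42 ± 1.11, adjusted p = 0.0372 and 0.0306), and neither had more than 7.27 RPKM in a young larva library.

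A few trypsin-like members were highest in the subimago. Trypsin-7 (13_Contig_2864) had 7.29, 9.84 and 9.43 RPKM in young larvae, 9.47, 14.3 and 10.1 in mature larvae, 77.5, 58.0 and 67.3 in subimagoes and 12.8, 11.3 and 11.9 in imagoes. The 3 subimago libraries lay above all 9 other stage libraries. It rose in subimago against mature larva (2.58 ± 0.20, adjusted p = 0.000204) and fell in imago against subimago (-2.49 ± 0.20, adjusted p = 1.85e-05, edgeR).

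The trypsin-like serine protease 13_Contig_3561 moved the same way and further, with 37.9, 27.8 and 33.2 RPKM in the subimagoes against 1.70, 3.28 and 0.559 in the mature larvae and 3.92, 4.03 and 5.93 in the young larvae. The imagoes had 0.268, 0.187 and 0.128 RPKM. Its log2 change was 4.16 ± 0.64 in subimago against mature larva (adjusted p = 0.00284) and -7.40 ± 0.75 in imago against subimago (adjusted p = 8.81e-05, edgeR). Trypsin-1 (13_Contig_10319) had 48.1, 24.5 and 9.20 RPKM in the subimagoes against 10.6, 0.174 and 0.271 in the mature larvae, and 32.1, 6.79 and 33.5 in the young larvae. The subimago and mature larva libraries overlapped through mature larva replicate 1, and the change was called only without it (6.92 ± 1.17, adjusted p = 0.00435; with it 2.88 ± 1.36, adjusted p = 0.128). It fell in the imago, where it had 0.219, 0.375 and 1.10 RPKM (-5.59 ± 1.54, adjusted p = 0.0289, edgeR).

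Other trypsin-like members rose within the larval period. Trypsin 13_Contig_3245 had 39.0, 43.7 and 62.9 RPKM in the mature larvae against 5.51, 0.718 and 4.85 in the young larvae, without overlap, and 68.5, 61.2 and 69.0 in the subimagoes and 46.9, 36.2 and 46.3 in the imagoes. It rose by 3.72 ± 0.55 in mature against young larva (adjusted p = 0.000186, edgeR). Chymotrypsin 13_Contig_20963 was highest in the 2 middle stages, with 1.71, 5.26 and 2.42 RPKM in mature larvae and 2.71, 2.18 and 1.86 in subimagoes, and at most 0.0946 RPKM in young larvae and imagoes. It rose by 5.91 ± 0.56 in mature against young larva (adjusted p = 2.72e-06) and fell in imago against subimago (-4.81 ± 0.52, adjusted p = 0.000111). The antitrypsin 13_Contig_803 had 11.0, 41.2 and 11.1 RPKM in the mature larvae, and no read in any young larva library. On 1398 reads, against the 3 that a count of 0 allows over the group, it was at least 603-fold higher in mature than in young larvae.

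**Figure D5:**
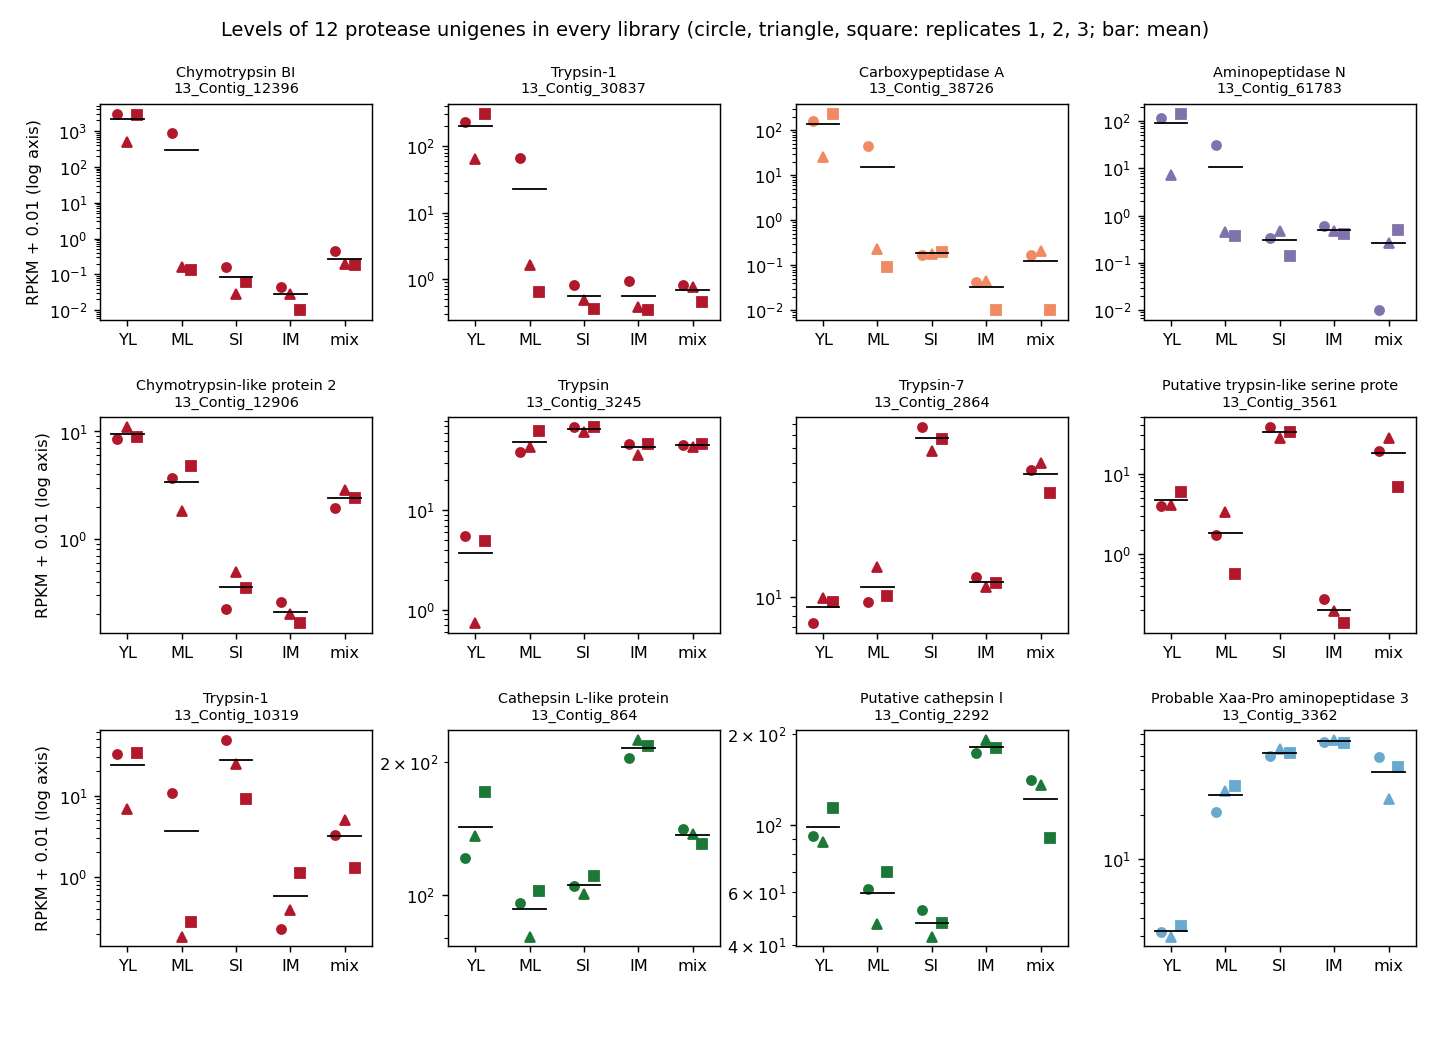
Levels of 12 protease unigenes in every library (log axis, RPKM plus 0.01) in young larvae (YL), mature larvae (ML), subimagoes (SI), imagoes (IM) and mixtures (mix), with the mean as a bar. The top row shows members high in the young larvae and in mature larva replicate 1, the middle and bottom rows include members highest in the subimago, such as trypsin-7, and in the imago, such as both cathepsins L.

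Carboxypeptidases A and B, which remove the last residue of a peptide, held both patterns. Carboxypeptidase A 13_Contig_38726 had 161, 24.7 and 231 RPKM in the young larvae, 45.4, 0.223 and 0.0792 in the mature larvae, 0.159, 0.170 and 0.191 in the subimagoes and 0.0320, 0.0355 and 0 in the imagoes, and so was high in the same 4 libraries as the chymotrypsins. It fell in winged against larval stages (-9.46 ± 1.64, adjusted p = 0.000358, edgeR). Its change in subimago against mature larva was -6.45 ± 2.01 with all libraries (adjusted p = 0.0399) and 0.28 without mature larva replicate 1 (adjusted p = 0.997).

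Zinc carboxypeptidase A 1 (13_Contig_29307) did not single out that library, with 5.49, 5.91 and 7.92 RPKM in young larvae, 2.87, 3.19 and 2.32 in mature larvae, 1.10, 1.39 and 0.945 in subimagoes and 0.0115, 0.0255 and 0.0467 in imagoes. The libraries of each stage lay below all of those of the stage before. Its largest step was imago against subimago, at -5.28 ± 0.51 (adjusted p = 6.27e-05, edgeR). Carboxypeptidase B 13_Contig_1799, which acts on basic end residues, rose in mature larvae, with 34.2, 57.3 and 14.8 RPKM against 2.48, 3.88 and 3.52 in young larvae (3.43 ± 0.97, adjusted p = 0.0155). It had 21.8, 13.2 and 12.8 RPKM in subimagoes and fell in imagoes to 0.253, 0.473 and 3.51 RPKM (-3.49 ± 0.98, adjusted p = 0.0303, edgeR).

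In 3 carboxypeptidases the mature larva libraries were split another way. Carboxypeptidase A First_Contig54 had 94.6, 114 and 12.8 RPKM in the mature larvae, 4.19, 52.9 and 25.5 in the young larvae and 19.5, 19.1 and 138 in the mixtures. Carboxypeptidase M 13_Contig_14738 had 84.3, 129 and 26.7 RPKM in the mature larvae, 13.7, 46.3 and 34.1 in the young larvae and 11.9, 11.2 and 142 in the mixtures. In both, and in 13_Contig_1799 with 12.0, 12.8 and 59.8 RPKM in the mixtures, mature larva replicate 3 was the lowest of its group and mixture replicate 3 stood above the other mixtures. Neither of the first 2 was called in mature against young larva (adjusted p = 0.275 and 0.25, edgeR).

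Aminopeptidase N, which removes the first residue and sits in the membrane of gut cells, had larval and non-larval unigenes. Aminopeptidase N 13_Contig_15764 had 250.1, 22.1 and 249.9 RPKM in young larvae, 78.3, 6.81 and 0.658 in mature larvae, 2.25, 0.894 and 1.26 in subimagoes and 0.240, 0.432 and 0.320 in imagoes. A further one, 13_Contig_61783, had 118, 7.17 and 143 RPKM in young larvae and 30.5, 0.446 and 0.369 in mature larvae, and at most 0.596 RPKM in the winged stages. In winged against larval stages both fell (-6.66 ± 1.10 and -6.28 ± 1.27, adjusted p = 0.000242 and 0.000979, edgeR).

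Against these, aminopeptidase N-10 (13_Contig_4292) had 12.1, 13.8 and 13.0 RPKM in young larvae, 36.8, 46.1 and 47.5 in mature larvae, 53.1, 55.7 and 59.3 in subimagoes and 59.7, 62.0 and 62.6 in imagoes. It rose in mature against young larva (1.74 ± 0.14, adjusted p = 6.95e-07) and in winged against larval stages (1.31 ± 0.10, adjusted p = 2.64e-07, edgeR). The aminopeptidase N-like unigene 13_Contig_3498 had 20.8, 29.1 and 77.9 RPKM in mature larvae against 9.39, 18.2 and 17.6 in young larvae and rose as well, by 1.5 ± 0.41 (adjusted p = 0.0135, edgeR), or by 1.87 ± 0.35 when mature larva replicate 1 was left out (adjusted p = 0.000736).

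Cathepsins L and B are cysteine proteases of the lysosome, and 2 cathepsins L made up 97.9% of the reads of the 27 cathepsin members in young larvae and 99.7% in imagoes. The cathepsin L-like 13_Contig_864 had 121, 136 and 171 RPKM in young larvae, 96.0, 80.4 and 102 in mature larvae, 105, 100.1 and 110.5 in subimagoes and 204, 223 and 217 in imagoes. Cathepsin L 13_Contig_2292 had 92.3, 88.1 and 114 RPKM in young larvae, 61.6, 47.0 and 69.7 in mature larvae, 52.2, 42.7 and 47.5 in subimagoes and 173, 191 and 179.9 in imagoes. For both, the 3 imago libraries lay above all 9 others.

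Imago against subimago gave log2 changes of 1.03 ± 0.13 for 13_Contig_864 and 1.93 ± 0.19 for 13_Contig_2292 (adjusted p = 0.000224 and 6.41e-05, edgeR). Both fell in mature against young larva (-0.62 ± 0.12 and -0.72 ± 0.18, adjusted p = 0.00172 and 0.00803). Of the other 25 cathepsins none had a mean of 10 RPKM in any stage, and 21 of the 27 had no read in the subimagoes. The share of all unigenes without a subimago read was not counted. Single subimago libraries had reads in 46070 to 49080 of the 91881 unigenes. Cathepsin B 13_Contig_93348, with a sponge as the source of its best hit, had 8.16, 0.613 and 4.64 RPKM in the young larvae and 1.92, 0 and 0 in the mature larvae, and no read in the winged stages or mixtures. Its libraries with reads were those in which protist or fungal hits took 1.74% or more of the reads; the part of other organisms in these reads was not tested.

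The 12 other carboxypeptidases that fell in winged against larval stages ranged in log2 change from -7.80 ± 1.83 (carboxypeptidase 13_Contig_88006) to -0.60 ± 0.10 (cytosolic carboxypeptidase-like protein 5, First_Contig147). Carboxypeptidase 13_Contig_19305, one of them, had 322, 42.9 and 377 RPKM in young larvae, 106, 7.08 and 2.91 in mature larvae, 1.87, 1.84 and 2.37 in subimagoes and 0.310, 0.401 and 0.420 in imagoes, and its log2 change was -6.80 ± 0.94 (adjusted p = 5.85e-05, edgeR). Lysosomal Pro-X carboxypeptidase 13_Contig_7307, which cuts after proline, was lowest in the subimago, with 17.1, 15.3 and 25.3 RPKM in young larvae, 5.63, 2.68 and 1.91 in mature larvae, 1.32, 1.09 and 1.14 in subimagoes and 4.21, 3.16 and 3.56 in imagoes. It fell in mature against young larva (-2.49 ± 0.36, adjusted p = 0.000136) and rose in imago against subimago (1.62 ± 0.35, adjusted p = 0.00866).

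Carboxypeptidases D and E trim peptide precursors, such as those of hormones. Carboxypeptidase D 13_Contig_1837 had 17.1, 19.2 and 19.2 RPKM in imagoes against 4.31, 7.57 and 7.91 in subimagoes, and rose (1.49 ± 0.24, adjusted p = 0.00152, edgeR). Carboxypeptidase E 13_Contig_10418 had 14.3, 14.3 and 12.8 RPKM in imagoes and 15.8, 16.9 and 15.6 in subimagoes, against 32.1, 28.6 and 38.6 in young larvae and 20.1, 22.3 and 15.3 in mature larvae, and fell in winged against larval stages (-0.76 ± 0.12, adjusted p = 0.00021). Cytosolic carboxypeptidase-like protein 5 (13_Contig_4750), a relative of enzymes that remove glutamate from tubulin in mammals, had 18.8, 18.9 and 28.7 RPKM in mature larvae against 6.84, 7.53 and 7.09 in young larvae and rose (1.63 ± 0.17, adjusted p = 7.57e-06, edgeR).

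Among the other aminopeptidases, Xaa-Pro aminopeptidase 3 (13_Contig_3362), which removes a residue that stands before proline, rose at each of the first 2 steps. It had 3.20, 2.97 and 3.53 RPKM in young larvae, 20.7, 29.0 and 31.1 in mature larvae, 49.6, 55.3 and 52.6 in subimagoes and 62.5, 63.8 and 61.4 in imagoes, with no overlap between the first 3 stages. The log2 changes were 3.06 ± 0.22 in mature against young larva and 0.96 ± 0.21 in subimago against mature larva (adjusted p = 2.43e-07 and 0.0115, edgeR). Xaa-Pro aminopeptidase 1 (13_Contig_3554) had 52.4, 48.1 and 52.0 RPKM in imagoes against 27.9, 32.3 and 33.2 in subimagoes (0.71 ± 0.22, adjusted p = 0.0487). Endoplasmic reticulum aminopeptidase 1 (13_Contig_138), which in mammals trims peptides in that compartment, varied little between libraries of a stage, with 16.5, 18.4 and 18.5 RPKM in subimagoes, 20.3, 19.3 and 19.6 in imagoes, 9.60, 9.34 and 9.95 in young larvae and 12.4, 15.6 and 15.8 in mature larvae. It rose in winged against larval stages (0.66 ± 0.07, adjusted p = 9.12e-06, edgeR). Glutamyl aminopeptidase 13_Contig_5171, which acts on acidic first residues, was not called in any of the 4 comparisons, with 25.6, 22.8 and 20.9 RPKM in imagoes and 48.1, 14.4 and 44.2 in young larvae.

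Lists of neighbouring functions were counted in the same fit, in winged against larval stages unless another comparison is named, where 43% of all unigenes were called lower and 28.1% higher. Of 73 tested other digestive enzymes (amylases, lipases, glucosidases and lysozymes among them), 37 fell and 18 rose. With all libraries these shares, 50.7% and 24.7%, lie near that background. Once mature larva replicate 1 was dropped, the lower share of this list was 49.3%, well above the 27.8% of all unigenes. Its higher share was then 21.3%, beside 24%. Alpha-amylase 13_Contig_25969 averaged 777 ± 598 RPKM in young larvae, 118 ± 204 in mature larvae and at most 0.0807 in either winged stage. Of 61 other secreted proteases 40 fell and 10 rose (65.6% and 16.4%). Peptide and amino acid transporters gave 16 lower and 12 higher of 33 (48.5% and 36.4%), lysosomal proteins 12 and 7 of 26 (46.2% and 26.9%), and peptidase inhibitors 8 and 4 of 18 (44.4% and 22.2%). With all libraries these 3 lists were thus near the background too. Without mature larva replicate 1 their lower shares were 42.4%, 38.5% and 38.9%, against 27.8% of all unigenes. Their higher shares were then 33.3%, 23.1% and 22.2%, against 24%. The excluded methionine aminopeptidases gave 1 lower and 2 higher of 3.

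The peritrophic matrix is the sheath around food in the midgut, and unigenes named for its proteins or for peritrophins did not fall at every step. They were listed by name alone, and whether each belongs to the midgut sheath was not tested. Of 16 unigenes, 3 fell and 0 rose in mature against young larva (0 also at an unadjusted p under 0.05 and with DESeq2), 3 fell and 7 rose in subimago against mature larva, and 10 fell in imago against subimago, beside 9.72%, 14.2% and 9.26% of all unigenes called lower. In subimago against mature larva 8.98% of all unigenes were called higher, and without mature larva replicate 1 the list gave 5 higher and 0 lower of 17 (2 lower at an unadjusted p under 0.05). The list took 0.156% ± 0.0224 of the reads in young larvae, 0.0881% ± 0.0542 in mature larvae, 0.152% ± 0.0570 in subimagoes and 0.00613% ± 0.000712 in imagoes (SD, n = 3 each). In winged against larval stages 14 of the 16 fell.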

How the data were processed

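The authors deposited 1 table with read counts and RPKM (reads relative to length and depth) of every unigene in each library, per the file headers. The deposited RPKM equal the counts over length and library total (largest relative difference 3.42e-07). Per the labels' protocols, reads were 125 bp pairs from TruSeq libraries, assembled with CLC Genomics Workbench and CAP3. The submitters' processing notes name DESeq. For the mapper, the counting and the strand setting, the sources used here give nothing.

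Counts were tested with edgeR 4.0.16 (quasi-likelihood, robust, TMM, filterByExpr) in R 4.3.3, in 1 fit of 15 libraries and 5 groups. The limma version was 3.58.1, and no limma test was run. Benjamini-Hochberg adjustment ran over all 34131 tested unigenes, with calls at an adjusted p under 0.05. DESeq2 1.42.0 was an alternative. Printed levels are RPKM computed from the counts after TMM scaling, in place of the deposited RPKM that had been planned, and the SE of a log2 change is its size over the square root of F. The fit was run on simulated counts for mature against young larva, with the same spread for every unigene and no outlying library. That run does not cover a library like mature larva replicate 1. The labels give no batch and call the libraries biological replicates, each a pool, so p-values measure the spread between pools. The main fit did not pair libraries by replicate number. Of 18 same-number correlations of deviations from the group mean, 3 were over 0.1. Between young and mature larvae they were 0.524, 0.551 and -0.229 for replicates 1, 2 and 3. Young larva replicate 2 with mature larva replicate 3 gave 0.404. The members, lists and tests were chosen with earlier results of these data known. Named members are 2 given markers, the 4 highest of each class, and, per comparison, the 4 largest called rises and falls with at least 1 CPM and no overlap. Other lists came from protein names. Floors cover counting error only.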

Additional observations from a re-analysis of the deposited data

How the results depend on the processing

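In mature against young larva, 16 members rose, against 8 with library totals alone and 10 (without young larva replicate 1) to 17 with single libraries left out. The 35 that fell became 56 with DESeq2, 17 without a filter, 85 without young larva replicate 2 and mature larva replicate 1 together, and 12 to 82 with single libraries left out, namely 18 and 14 without young larva replicates 1 and 3, and 82, 12 and 14 without mature larva replicates 1, 2 and 3. In subimago against mature larva, 3 rose, against 5 with DESeq2's size factors, 6 with library totals, 7 with DESeq2, 5 without both libraries and 3 to 10 with single libraries left out (5 and 10 without mature larva replicates 1 and 3). The 34 that fell became 6 without a filter, 9 without both libraries, 11 with the replicate number as a block, and 2 to 46 with single libraries left out. The 4 without mature larva replicate 1, the 7, 3 and 2 without subimago replicates 1, 2 and 3, the 20 without young larva replicate 3, and the 21, 21 and 22 without imago replicates 1, 2 and 3 were over 1.5 times away. In imago against subimago, 6 rose, against 10 with DESeq2, and 20 fell, against 10 to 22 with single libraries left out (11 without subimago replicate 1, and 11, 10 and 13 without imago replicates 1, 2 and 3). Winged against larval counts stayed within 1.5 times (13 to 18 higher and 75 to 99 lower with single libraries left out). As a percentage of reads with an arthropod hit, the members' share was 1.49% in young larvae (SD 0.713) and 0.557% in mature larvae. It was 0.431% in subimagoes, 0.404% in imagoes and 0.417% in mixtures. Carboxypeptidase A 13_Contig_38726 and chymotrypsin 5 13_Contig_39907 changed sign in subimago against mature larva, to 0.28 and 0.16 without mature larva replicate 1 and to 0.27 and 0.15 without both libraries. With single libraries left out they ran from -7.19 to 0.28 and from -11.78 to 0.16. Of 86 calls of named members, 48 held in all alternatives, 36 were lost in some and these 2 reversed. The replicate block ended 12 of the 86 calls. Scaling by library totals moved the median of all unigenes by -0.51 in mature against young larva and 0.27 in subimago against mature larva, and TMM on arthropod hits by -0.34 in winged against larval stages. The causes were not tested. Depth limits the values near 0 reads.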
